A study of Homo sapiens with 16 samples.

Results

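SW480 is a human colon cancer cell line that grows as a monolayer in culture. The libraries described here compare SW480 cells that carried dnLEF1, a dominant negative form of the transcription factor LEF1, with SW480 cells that carried GFP. The 8 libraries, 4 of each kind, are all the SW480 samples among the 16 samples of the series, which has 4 groups of 4 in 2 colon cancer lines. They were chosen by their labels alone. The labels describe the GFP cells as the mock control with high Wnt activity and the dnLEF1 cells as the experimental group with low Wnt activity. All 8 samples were at passage 6, were grown in DMEM, were taken up with trypsin/EDTA and had polyadenylated RNA sequenced from TRIzol extracts. How the transgenes were delivered, which promoter drives them, and whether a group is 1 clone or a pool of cells are unstated in those labels. The title of the series names the adhesion, mobility and junction programs of these cells as its subject. The description below takes in the other programs, across all genes.

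Wnt ligands act by keeping beta-catenin, the product of CTNNB1, from destruction by a complex that includes the APC and AXIN proteins. Beta-catenin then enters the nucleus and binds the TCF/LEF factors (TCF7, TCF7L1, TCF7L2 and LEF1), which recognise a short motif with the core CTTTG and switch between activation with beta-catenin and repression with Groucho/TLE proteins. Most colon cancers lose the brake on this pathway through APC, and the intestinal stem cell state depends on the same pathway. A dominant negative LEF1 keeps the DNA-binding part and lacks the part that binds beta-catenin, so it occupies target sites without activating them.

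Values are CPM: counts divided by the library's effective size (from the fit) and put on a common scale, without correction for gene length. They compare a gene between samples, and not genes with each other. A gene rose or fell where edgeR's quasi-likelihood test over the 8 libraries gave a Benjamini-Hochberg adjusted p below 0.05. A log2 fold change (dnLEF1 over GFP) is given ± an approximate standard error. The labels do not say that the 4 samples of a group came from separate cultures. A p-value here weighs the difference between groups against the spread of these samples only. Part of that spread may be technical. Replicates 2 and 3 were closer to each other than any other pair of their group. A chi-square of their counts over genes was 1.99 per degree of freedom with GFP and 2.33 with dnLEF1, against 6.78 to 22.1 for the other pairs, so they differed by more than sampling noise and were kept as separate samples. With both summed into 1 sample in each group, 3093 genes rose and 3100 fell.

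The 8 libraries held 20149565 to 24921994 counts on genes. Log2 CPM correlated at 0.993 to 0.998 within a group and at 0.956 to 0.967 between groups. Some libraries stood apart within their group, however. Among the 182 genes that fell at least 8-fold, GFP replicate 1 was the lowest GFP library for 136, at a median of 0.664 times the mean of the other 3. GFP replicate 4 was the highest for 111 of them, at 1.27 times. Without GFP replicate 1, 3374 genes fell, 3163 of them among the 3515 that fell with all libraries. GFP replicates 1 and 4 and dnLEF1 replicates 1 and 4 also deviated by transcript length and base composition, as described with the ribosomal protein genes. Markers of other cell types did not share a direction. The summed level of 8 endothelial markers was 1.07 to 1.56 CPM in the GFP libraries and 2.52 to 4.17 CPM in the dnLEF1 libraries. The sum of 12 immune cell markers was 5.38 to 6.27 CPM and 8.69 to 11.1 CPM. The sum of 12 neural and glial markers was 121 to 141 CPM with GFP and 89.4 to 95.9 CPM with dnLEF1, and that of 12 fibroblast and stromal markers was 504 to 612 CPM and 558 to 808 CPM, most of it from S100A4. Their part in the results was not tested.

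LEF1 (chr4:108047545-108168956, hg38) was counted at 54.8, 54.2, 51 and 54.7 CPM in GFP replicates 1 to 4 and at 285, 281, 279 and 181 CPM in dnLEF1 replicates 1 to 4. Every dnLEF1 library was above every GFP library, and dnLEF1 replicate 4 was the lowest of its group. The counts hold reads from the gene's own transcript and from any transgene sequence that matches it, which cannot be told apart here. TCF7, whose gene is itself a Wnt target, was at 76.1, 86.5, 86 and 79.8 CPM in the GFP libraries and 37.9, 41.6, 38.1 and 34.4 CPM in the dnLEF1 libraries, and fell by 2.16-fold with no overlap. TCF7L2, the main TCF of intestinal epithelium, fell from 32.6 ± 2.40 to 17.6 ± 2.45 CPM (SD, n = 4 each). For TCF7L1, mostly a repressor, the levels were 8.10 and 9.79 CPM, with an adjusted p of 0.0461 by edgeR that passed the threshold but was lost under 12 of 19 alternative settings.

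The genes around beta-catenin moved too. CTNNB1 (chr3:41194741-41260096) was at 1563, 1741, 1723 and 1770.3 CPM with GFP and 712, 798, 804 and 822 CPM with dnLEF1, a log2 change of -1.12 ± 0.07. All dnLEF1 libraries were below all GFP libraries. APC fell from 71.3 ± 7.84 to 40.3 ± 6.10 CPM, and AXIN2, a feedback inhibitor and standard Wnt target, fell from 572 ± 11.7 to 72.6 ± 4.49 CPM. TLE1, a Groucho-type corepressor that binds TCF/LEF factors, was at 2.59, 4.22, 2.93 and 3.35 CPM with GFP and 60.5, 74.5, 69.8 and 66.5 CPM with dnLEF1. That rise of 20.8-fold was among the 15 largest of called genes with at least 5 CPM in 1 group and no overlap. MYC, often listed as a Wnt target, was at 239 ± 16.5 CPM with GFP and 247 ± 17.4 CPM with dnLEF1 (SD, n = 4 each, edgeR adjusted p = 0.627), and did not pass. EGFR was at 57.4, 36.3, 35.7 and 41.1 CPM with GFP and 40.8, 47.2, 53.9 and 30.2 CPM with dnLEF1, and did not pass either (edgeR adjusted p = 0.959). GFP replicate 1 was its highest library and dnLEF1 replicate 4 its lowest.

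**Figure D1:**
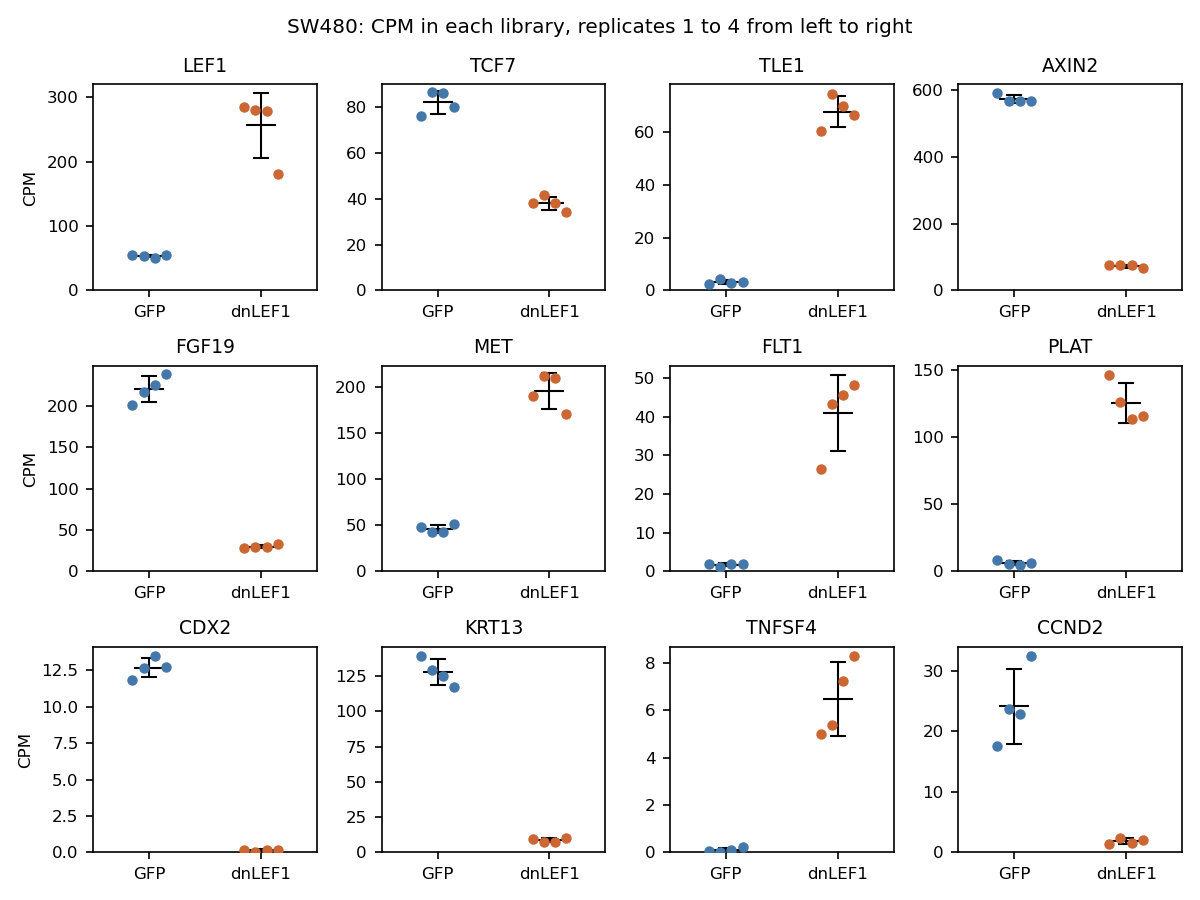
CPM of 12 genes in each SW480 library (vertical axes from 0), with GFP in blue and dnLEF1 in orange. Points are replicates 1 to 4 from left to right, horizontal bars are means and error bars are the SD over 4 libraries. The groups do not overlap for any of these 12 genes.

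The change reached deep into the transcriptome. Of 14426 genes tested, 7000 (48.5%) passed the test, with 3485 (24.2%) higher and 3515 (24.4%) lower in dnLEF1 cells. The gene lists below have to be read beside these shares, because a list near them moved as genes in general did. The CPM ranges of the groups did not overlap for 6515 genes (45.2%). Most of these changes were small: 4141 of the 7000 were under 1.5-fold. At least 2-fold rises numbered 770 (5.34%) and at least 2-fold falls 800 (5.55%). The large changes leaned downward, with 245 rises and 359 falls of at least 4-fold, and 101 rises and 182 falls of at least 8-fold. The median log2 change over all genes tested was 0.00, with quartiles of -0.25 and 0.26.

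**Figure D2:**
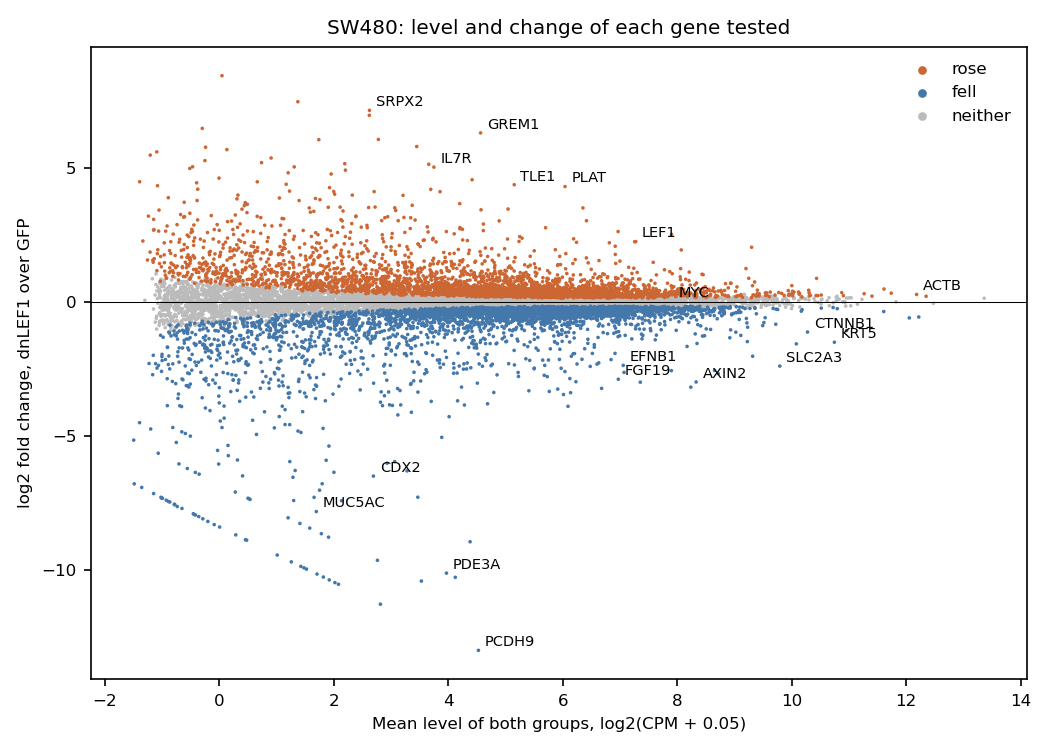
Each gene tested, by its mean level over both groups (horizontal axis, log2 of CPM plus 0.05) and its log2 fold change of dnLEF1 over GFP (vertical axis). Orange genes rose, blue genes fell and grey genes did neither. The line of blue points at the lower left is genes with no count in the dnLEF1 libraries, whose fitted value depends on the prior count.

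At the far end stood genes that were all but silent in dnLEF1 cells. In 20 genes that averaged at least 5 CPM in the GFP libraries, the 4 dnLEF1 libraries held 3 counts or fewer in total. Only 1 gene, LOC100507065, showed the reverse. PCDH9, a protocadherin, was at 29.3, 46.9, 46.5 and 61.3 CPM in the GFP libraries and had no count with dnLEF1. Set against a floor of 3 counts over the 4 libraries, that is at least 1353-fold lower. TMPRSS15, the intestinal protease enteropeptidase, was at 24.2, 35.8, 35.4 and 43.5 CPM and had 2 counts, a ratio of 1514 (95% interval 419 to 12511). PDE3A, which breaks down cAMP, was at 17.7, 34.7, 29.6 and 42.7 CPM and also had 2 counts, a ratio of 1355 (95% interval 375 to 11196). These bounds and intervals cover counting error only. Within the GFP group all 20 genes had their lowest value in replicate 1, at 0.297 to 0.685 times the mean of the other 3. The other genes of this kind included the protocadherin PCDH15, the transcription factor DACH2, the guidance ligand SEMA3D, the metalloproteinase TLL1 and the postsynaptic LRRTM1 and LRRTM4. DACH2 and PCDH15 had no dnLEF1 count and were at least 189-fold and 246-fold lower.

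The largest rises with at least 5 CPM in 1 group began from low levels. PKIB, an inhibitor of cAMP-dependent kinase, was at 0.0821, 0.278, 0.298 and 0.141 CPM in the GFP libraries and 13.5, 12.5, 13.2 and 14.5 CPM in the dnLEF1 libraries. TM4SF18, a membrane protein of the transmembrane-4 L6 family, rose from 0.378 ± 0.0712 to 21.4 ± 4.18 CPM, and MYH15, a myosin heavy chain, rose from 0.286 ± 0.206 to 8.83 ± 0.466 CPM. CCL2, a chemokine for monocytes, was at 0.329, 0.139, 0.199 and 0.283 CPM and 8.55, 7.90, 7.91 and 10.8 CPM, with dnLEF1 replicate 4 the highest of its group. MAGEC2, a cancer-testis antigen of the X chromosome, rose from 0.702 ± 0.253 to 24.5 ± 2.09 CPM. The ranking that gave these 5 genes took only genes whose groups did not overlap, so their lack of overlap follows from that choice.

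The promoter windows of the genes that fell held the TCF/LEF motif more often than those of the genes that rose. RefSeq windows from 250 bases before to 50 after the annotated start (GRCh38.p14) were matched to 11234 genes tested. CTTTGAT or CTTTGTT on either strand was present in 160 of 2788 windows (5.74%) of fallen genes, 95 of 2719 (3.49%) of risen genes and 265 of 5727 (4.63%) of the rest. Among falls of at least 4-fold it was in 24 of 254 (9.45%), and among rises of that size in 10 of 175 (5.71%). Over all 17341 windows that matched a gene symbol of the files, tested or not, the share was 6.31%. With CTTTGAT alone the shares were 1.79% of fallen genes, 0.772% of risen genes, 1.54% of the rest and 2.05% of all windows. At 4-fold or more it was in 11 of 254 windows (4.33%) of falls and 1 of 175 (0.571%) of rises. These shares carry no test, and a match shows only that the letters occur in the window. The windows were not matched for base composition, while risen and fallen genes differed in transcript GC content, as described below. The part of base composition in these shares was not tested. The 250 bases before the start follow for 3 genes with large falls and 2 with large rises, chosen among those named by the rule with a match in that stretch, with the motif in capitals as it reads 5′ to 3′ on the gene's strand. In them the core CTTTG sits at different distances from the start. The 3 fallen genes hold the form CTTTGAT and the 2 risen genes the form CTTTGTT, which reads AACAAAG in TNFSF4.
SP5: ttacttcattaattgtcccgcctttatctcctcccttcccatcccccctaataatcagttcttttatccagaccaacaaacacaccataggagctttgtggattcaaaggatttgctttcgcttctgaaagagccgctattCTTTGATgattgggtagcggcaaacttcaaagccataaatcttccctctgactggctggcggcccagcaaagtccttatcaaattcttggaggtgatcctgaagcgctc
FGF18: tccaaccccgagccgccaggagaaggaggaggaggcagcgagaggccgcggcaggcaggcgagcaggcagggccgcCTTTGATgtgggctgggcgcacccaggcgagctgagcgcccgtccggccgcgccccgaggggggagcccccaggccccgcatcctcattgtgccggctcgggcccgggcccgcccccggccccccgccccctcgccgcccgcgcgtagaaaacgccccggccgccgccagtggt
GABRB2: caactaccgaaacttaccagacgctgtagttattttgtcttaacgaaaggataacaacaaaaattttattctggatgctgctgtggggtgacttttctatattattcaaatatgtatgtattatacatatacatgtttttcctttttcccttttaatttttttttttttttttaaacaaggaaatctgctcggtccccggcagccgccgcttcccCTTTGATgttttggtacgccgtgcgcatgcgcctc
TNFSF4: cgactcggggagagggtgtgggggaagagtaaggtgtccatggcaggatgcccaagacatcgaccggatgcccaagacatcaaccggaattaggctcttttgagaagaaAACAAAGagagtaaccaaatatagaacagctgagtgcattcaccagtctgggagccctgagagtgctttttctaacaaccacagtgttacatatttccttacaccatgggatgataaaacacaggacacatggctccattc
PLAU: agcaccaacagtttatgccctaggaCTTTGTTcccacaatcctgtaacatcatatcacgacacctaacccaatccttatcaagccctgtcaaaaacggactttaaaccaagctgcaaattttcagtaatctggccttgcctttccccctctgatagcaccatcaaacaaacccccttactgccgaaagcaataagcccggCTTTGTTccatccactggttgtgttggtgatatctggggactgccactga
SP5 (chr2:170715087-170715336, plus strand) is a Wnt-induced repressor of the SP family, with the motif beginning 109 bases before the start. FGF18 (chr5:171419397-171419646, plus strand) encodes a growth factor and has it 174 bases before. In GABRB2 (chr5:161546726-161546975, minus strand), a GABA-A receptor subunit, it lies 35 bases before. TNFSF4 (chr1:173205533-173205782, minus strand) encodes the T-cell costimulator OX40 ligand, with 1 match at 141 bases. PLAU (chr10:73910360-73910609, plus strand) encodes urokinase, with matches at 225 and 50 bases. SP5 was at 107, 115, 122 and 107 CPM with GFP and 19.9, 16.7, 18 and 20.4 CPM with dnLEF1, and TNFSF4 was at 0.0411, 0, 0.0995 and 0.236 and 4.99, 5.40, 7.25 and 8.28 CPM. By the same rule the largest falls with a motif also included ADGRL2 (6.59 to 0.0443 CPM), DACH1 (20.1 to 1.96 CPM) and PDE4D (291 to 36.7 CPM). The rises also included SLC2A12 and PRSS2.

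Most genes of the fibroblast growth factor family that were tested fell in dnLEF1 cells. Of 13 FGF ligands and receptors tested, 8 fell and 0 rose, with a median log2 change of -0.83 against 0.00 over all genes. FGF19 (chr11:69698238-69704022), the hormone that feeds back on bile acid synthesis, was at 202, 217, 226 and 239 CPM in the GFP libraries and 27.9, 30.1, 29.7 and 32.9 CPM in the dnLEF1 libraries. FGF9 fell from 7.55 ± 1.90 to 0.862 ± 0.331 CPM and FGF18 fell from 7.60 ± 1.37 to 1.04 ± 0.275 CPM. FGFRL1, a decoy receptor of the family, fell from 69 ± 9.79 to 33.4 ± 2.42 CPM.

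Other receptor tyrosine kinases moved both ways. Of 19 tested, 8 (42.1%) rose and 6 (31.6%) fell, against 24.2% and 24.4% of all genes tested. Only 3 falls were left without GFP replicate 2 or 3 or dnLEF1 replicate 4. MET, the receptor of hepatocyte growth factor, was at 48.1, 42.4, 42.4 and 51.8 CPM with GFP and 191, 212, 209 and 171 CPM with dnLEF1. FLT1, a VEGF receptor best known from endothelium, was at 2.01, 1.25, 1.84 and 1.79 and 26.4, 43.3, 45.7 and 48.2 CPM, with dnLEF1 replicate 1 lowest. The summed endothelial markers were at most 4.17 CPM in any library. NTRK2, the BDNF receptor, fell from 40.4 ± 2.26 to 4.98 ± 1.34 CPM, and ALK fell from 5.05 ± 0.461 to 0.762 ± 0.0913 CPM. In the ERBB family, EGFR did not pass, and ERBB3 fell from 67.7 ± 4.54 to 42.9 ± 3.37 CPM. ERRFI1, a cytoplasmic inhibitor of EGFR, rose from 40.0 ± 4.85 to 185 ± 10.7 CPM. Over that list 5 of 14 genes (35.7%) rose and 4 (28.6%) fell. These small counts were unstable: the falls numbered 1 or 2 without GFP replicate 2, 3 or 4 or dnLEF1 replicate 2 or 4, and the rises 3 without GFP replicate 2.

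Genes of insulin and insulin-like growth factor signalling fell more often than they rose, 12 against 4 of 22 tested, with a median of -0.29. With offsets for transcript length and GC content the counts were 7 and 5. IGFBP3, a secreted binding protein, was at 152, 135, 129 and 110.0 CPM with GFP and 34, 27.5, 27.7 and 31 CPM with dnLEF1, while IGFBP7 rose from 82.3 ± 4.76 to 202 ± 25.9 CPM. PIK3R1, the regulatory subunit of PI3-kinase, fell from 36.6 ± 3.40 to 15.8 ± 2.96 CPM. GRB10, an adaptor that dampens insulin receptor signalling, rose from 32.8 ± 4.36 to 73.8 ± 6.13 CPM. Of 25 genes of ERK feedback and output, 10 (40%) fell and 5 (20%) rose, against 24.4% and 24.2% of all genes tested. DUSP4, a nuclear phosphatase of ERK, fell from 65.6 ± 5.48 to 25 ± 3.45 CPM, and the kinase gene MAP3K1 fell from 90.7 ± 9.65 to 41.3 ± 5.10 CPM. DUSP1, which is also an early response gene, rose from 19.3 ± 4.02 to 40.6 ± 4.79 CPM.

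Of 31 BMP genes tested, 8 (25.8%) rose and 13 (41.9%) fell, with a median of -0.03. The shares of all genes tested were 24.2% risen and 24.4% fallen, so the rises were near that share. The secreted BMP antagonists GREM1 and NOG rose: GREM1 was at 0.616, 0.557, 0.547 and 0.613 CPM and 44.1, 44.3, 46.3 and 52 CPM, and NOG at 0.616, 0.325, 0.249 and 0.236 and 8.14, 5.88, 6.47 and 8.08 CPM. Both were near 0 in every GFP library. BMP2, a ligand, rose from 1.17 ± 0.277 to 6.52 ± 1.11 CPM. ID1, a standard BMP target, fell by 5.62-fold, from 33.8 ± 9.62 to 6.01 ± 1.10 CPM.

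In the TGF-beta list 11 of 27 genes (40.7%) rose and 7 (25.9%) fell, against 24.2% and 24.4% of all genes tested. The ligand TGFB2 rose from 8.13 ± 1.42 to 23 ± 5.74 CPM. TGFBR3, the coreceptor that presents TGFB2, fell from 7.55 ± 1.04 to 2.10 ± 0.448 CPM, and the activin subunit INHBB fell from 63.6 ± 4.57 to 20.1 ± 1.43 CPM. Among 27 Notch genes, 10 (37%) fell and 6 (22.2%) rose. HES7, an oscillating Notch target in somites, rose from 2.61 ± 0.138 to 17.5 ± 2.03 CPM, whereas HES6 fell from 47.2 ± 10.9 to 17 ± 1.41 CPM. LFNG, which glycosylates Notch receptors, fell from 31.4 ± 3.39 to 11.6 ± 1.35 CPM, and the coactivator MAML3 rose from 4.82 ± 0.81 to 12.6 ± 1.71 CPM.

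In the Hedgehog list, 5 of 13 genes (38.5%) fell and 3 (23.1%) rose, against 24.4% and 24.2% of all genes tested. PTCH1, the receptor and a feedback target, was at 89, 84.2, 84.7 and 84.8 CPM and 23.8, 35.2, 35.3 and 27.9 CPM. GLI3, the transcription factor that acts mostly as a repressor, fell from 238 ± 17.6 to 100.3 ± 16.6 CPM. SMO, the signal transducer, rose from 12.9 ± 1.57 to 16.7 ± 0.578 CPM, and its inhibitor downstream, SUFU, fell from 18.3 ± 1.38 to 14.8 ± 0.535 CPM. The PTCH1 and GLI3 groups did not overlap.

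Ephrins, which position cells along the intestinal crypt together with EPHB receptors, changed by member. Of 17 genes tested, 5 (29.4%) rose and 7 (41.2%) fell, the latter 4 without GFP replicate 4. The shares of all genes tested were 24.2% and 24.4%. EFNB1 was at 239, 224, 219.8 and 209 CPM with GFP and 45.5, 43.7, 42.1 and 42.8 CPM with dnLEF1, a fall of 5.12-fold. EFNB2 went the other way, from 20.2 ± 2.33 to 66 ± 5.35 CPM, as did EFNA5, from 2.65 ± 0.545 to 16.2 ± 2.86 CPM. The receptor EPHA1 rose from 9.65 ± 0.446 to 21.8 ± 0.947 CPM. Semaphorins, netrins, slits and their receptors, first known from axon guidance, split 12 up (31.6%) and 13 down (34.2%) of 38. SEMA3F fell from 12.8 ± 3.25 to 1.25 ± 0.38 CPM. NTN4 rose from 1.55 ± 0.212 to 19 ± 1.75 CPM, and SEMA7A, which is anchored to the membrane by a lipid, rose from 4.65 ± 1.14 to 32.2 ± 2.21 CPM.

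Most of the intestinal identity factors tested fell in dnLEF1 cells. Of 21 intestinal and endodermal transcription factors tested, 12 fell and 3 rose, with a median of -0.64. CDX2 (chr13:27960918-27969315), the homeobox factor that specifies intestine, was at 11.9, 12.7, 13.5 and 12.7 CPM in the GFP libraries and 0.183, 0.0439, 0.175 and 0.145 CPM in the dnLEF1 libraries. PROX1, a Wnt-dependent homeobox factor of colon tumours, was at 103, 98.7, 109.9 and 124 and 9.38, 13.6, 14.2 and 8.86 CPM. ASCL2, which maintains crypt stem cells, fell from 40.6 ± 4.17 to 7.74 ± 0.91 CPM, and SATB1, a chromatin organiser, fell from 7.15 ± 1.55 to 1.89 ± 0.295 CPM. HNF4A, a nuclear receptor of the differentiated epithelium, fell from 14.6 ± 2.13 to 9.93 ± 0.835 CPM. The GFP and dnLEF1 libraries did not overlap for any of these 5 genes. Of 12 markers of colon epithelium, 8 were tested, with 7 lower and 1 higher. VIL1, villin of the brush border, fell from 36.3 ± 4.65 to 2.53 ± 0.518 CPM, and the exception was CDH1, from 13.8 ± 2.71 to 40.6 ± 6.94 CPM. Their summed level was 11155 to 12964 CPM in the GFP libraries and 7360.0 to 8899.7 CPM in the dnLEF1 libraries, most of it from keratins.

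Secretory and keratin genes followed in part. Of 15 mucin, goblet, Paneth and tuft cell genes tested, 8 (53.3%) fell and 4 (26.7%) rose, against 24.4% and 24.2% of all genes tested. MUC16 fell from 7.27 ± 1.49 to 0.174 ± 0.127 CPM. MUC5AC, the gastric gel-forming mucin, was at 4.72, 5.94, 7.01 and 7.73 CPM with GFP and had 2 counts with dnLEF1, a ratio of 277 (95% interval 76.3 to 2294). DEFA5, an alpha-defensin of Paneth cells, rose from 0.394 ± 0.183 to 5.91 ± 1.75 CPM. Keratins, the epithelial intermediate filaments, fell in 13 of 21 genes and rose in 6, with a median of -0.74. KRT13 was at 139, 129, 125 and 117 CPM with GFP and 9.33, 7.42, 7.73 and 10.2 CPM with dnLEF1. KRT23 fell from 687 ± 77.5 to 118 ± 11.4 CPM, and the basal keratin KRT5 fell from 2538 ± 358 to 900.5 ± 52.9 CPM. The simple-epithelial pair KRT8 and KRT18 fell less, from 5686 ± 396 to 3869 ± 342 CPM and from 5118 ± 426 to 3401 ± 375 CPM. KRT71 and KRT74, known from hair follicles, fell as well, to 1.64 and 5.27 CPM.

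Granin and neuroendocrine genes and GABA receptor and neurexin genes fell in most of their tested members. Of 16 granin and neuroendocrine genes tested, 11 fell and 2 rose (median -0.96). CHGA, chromogranin A of secretory granules, was at 19.5, 20.5, 21.6 and 25.4 CPM and 9.88, 10.2, 9.92 and 11.2 CPM. SCG2 and SCG3, granins of the same granules, fell from 8.64 ± 1.53 to 3.35 ± 0.164 CPM and from 15.3 ± 2.60 to 5.93 ± 0.833 CPM. The neural adhesion molecule NCAM1 fell from 41.3 ± 4.07 to 9.13 ± 1.13 CPM, and the synaptic vesicle protein SYP fell from 26 ± 1.06 to 13.3 ± 1.38 CPM. GABA receptor and neurexin genes had a median of -3.38, with 9 of 14 falling and 2 rising. The GABA-A subunit genes GABRB2 and GABRG1 averaged 7.40 and 23 CPM with GFP, and each had 1 count in all with dnLEF1. Sodium and calcium channels split 9 up (37.5%) and 10 down (41.7%) of 24, against 24.2% and 24.4% of all genes tested. Potassium channels split 15 up (34.9%) and 13 down (30.2%) of 43. KCNJ10 fell from 16.7 ± 1.76 to 1.17 ± 0.243 CPM.

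Other transcription factor families held genes of both directions, beside 24.2% risen and 24.4% fallen over all genes tested. In the KLF, SP and EGR family 12 of 25 fell and 3 rose, with a median of -0.42. KLF5, which promotes growth of crypt cells, was at 125, 128, 125 and 138 CPM with GFP and 35.6, 48.5, 46.8 and 47 CPM with dnLEF1. KLF13 fell from 87.9 ± 4.92 to 19.7 ± 1.54 CPM. ETS factors fell in 9 of 19 and rose in 2. ETV3, a repressor, fell from 64.1 ± 4.40 to 10.4 ± 2.30 CPM, while the epithelial factor EHF rose from 116 ± 12.9 to 210.4 ± 26.8 CPM. Of 9 SOX genes, 2 rose and 4 fell. SOX4, a Wnt and TGF-beta responsive factor, fell from 141 ± 11.2 to 46.9 ± 5.56 CPM, and SOX2, a pluripotency factor, rose from 9.88 ± 2.12 to 17.7 ± 2.27 CPM. Of 28 forkhead genes, 9 (32.1%) rose and 8 (28.6%) fell, or 5 fell without GFP replicate 4. FOXQ1 was at 91.8, 109.8, 112 and 111 and 14, 20.8, 20.5 and 21.7 CPM, FOXP1 rose from 0.952 ± 0.289 to 7.80 ± 1.30 CPM, and FOXA2, a pioneer factor of endoderm, rose from 6.51 ± 0.881 to 20.2 ± 1.13 CPM. Of 25 nuclear receptors, 7 (28%) rose and 9 (36%) fell. NR2F1 fell from 48.4 ± 2.07 to 20.5 ± 3.43 CPM and NR2F2 rose from 68 ± 7.11 to 132 ± 19.4 CPM, so the COUP-TF pair moved in opposite directions. NR3C1, the glucocorticoid receptor, rose from 13.2 ± 1.84 to 27.3 ± 3.35 CPM. HOX genes split 9 up and 10 down of 33, or 5 and 11 with length and GC offsets, and with 1 change of at least 2-fold.

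**Figure D3:**
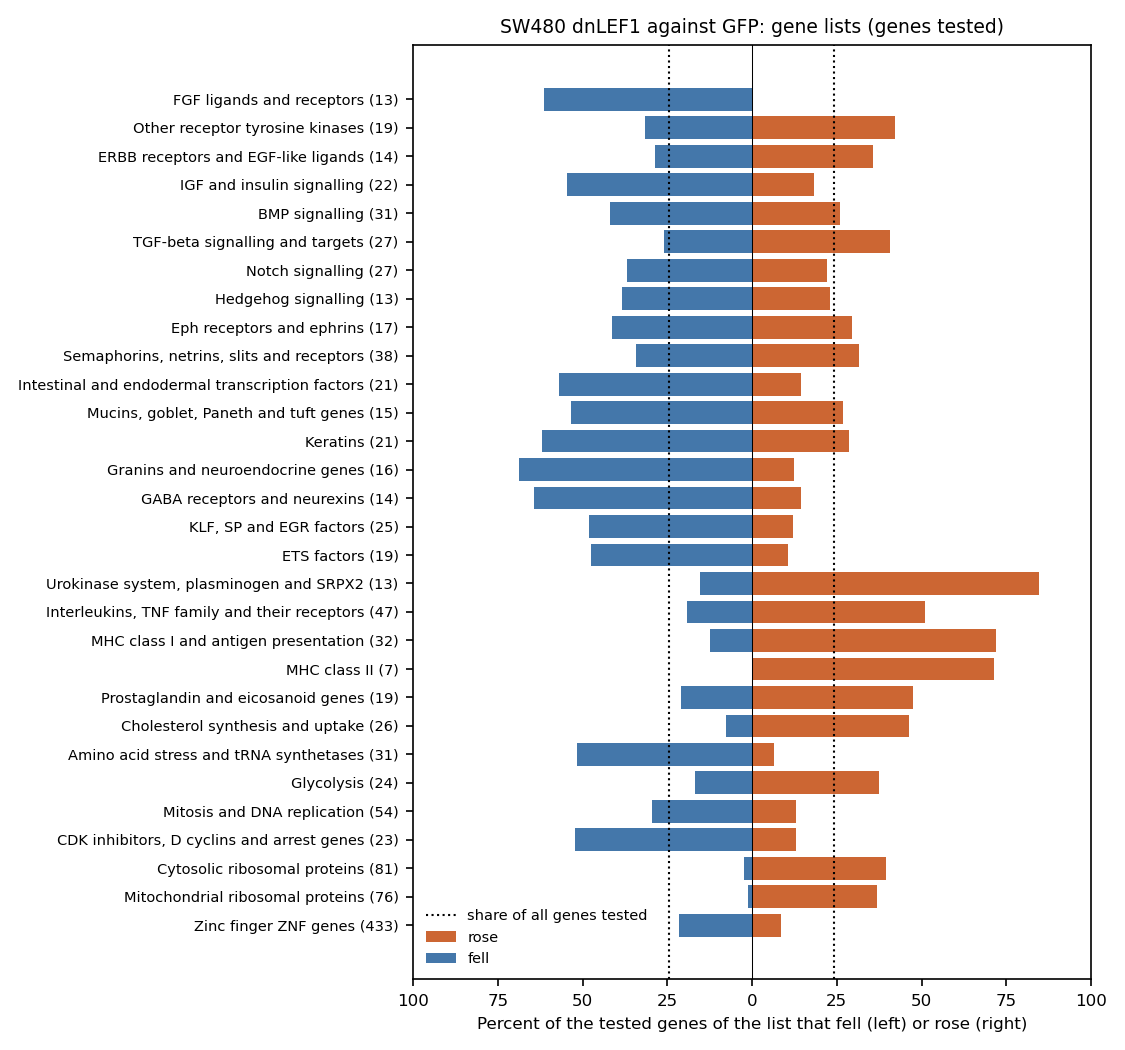
Share of the tested genes of 30 lists that fell (blue, to the left) or rose (orange, to the right) in dnLEF1 cells, with the number tested in parentheses. Dotted lines mark the shares over all genes tested, 24.4% fallen and 24.2% risen. FGF genes, granins and keratins extend to the left and urokinase and MHC genes to the right.

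The urokinase and plasminogen system rose in most of its members. Of 13 genes tested, 11 rose and 2 fell, with a median of 2.31. The list was drawn up with the rise of SRPX2, a urokinase receptor ligand, known. PLAT, tissue plasminogen activator, was at 8.42, 5.61, 4.87 and 6.22 CPM with GFP and 146, 126, 114 and 115 CPM with dnLEF1. PLAU was at 7.31, 5.38, 5.82 and 6.84 and 32.4, 34.1, 29.2 and 31 CPM. The thrombin receptor F2R rose from 4.0 ± 0.838 to 43.5 ± 2.28 CPM, and the trypsin-sensing receptor F2RL1 rose from 18.6 ± 1.27 to 152 ± 5.15 CPM. No dnLEF1 library was as low as any GFP library for these 4 genes. Metalloproteinases and their inhibitors were more even, with 12 of 30 (40%) rising and 7 (23.3%) falling. The shares of all genes tested were 24.2% risen and 24.4% fallen. MMP17, a membrane-type metalloproteinase, rose from 0.915 ± 0.313 to 5.09 ± 2.71 CPM, and ADAMTS15, which cleaves versican, fell from 28.3 ± 1.38 to 5.79 ± 0.814 CPM. Of 27 transmembrane proteases, kallikreins and cathepsins, 11 (40.7%) rose and 6 (22.2%) fell, or 9 and 10 with length and GC offsets. The lysosomal CTSS rose from 6.53 ± 1.10 to 23.7 ± 3.55 CPM, CTSV rose from 34.3 ± 2.86 to 90.3 ± 21.3 CPM, and the cystatin CST1 rose from 53.2 ± 9.39 to 253 ± 26.2 CPM.

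Cytokine and antigen presentation genes rose more often than they fell. Of 47 interleukin and TNF family genes tested, 24 rose and 9 fell, with a median of 0.44. IL7R, the interleukin-7 receptor of lymphocytes, was at 0.821, 0.557, 0.845 and 0.943 CPM with GFP and 26.4, 25.6, 27 and 25 CPM with dnLEF1. TNFSF15 rose from 0.661 ± 0.276 to 7.88 ± 1.21 CPM and CD70, another TNF-family ligand of activated lymphocytes, rose from 5.01 ± 0.418 to 32.9 ± 4.80 CPM. The groups did not overlap for these 3 genes. Of the immune cell markers, only 4 of 12 were tested, and CD68, found in lysosomes of many cells, was the 1 that rose, from 2.07 ± 0.499 to 5.03 ± 1.15 CPM. The part of immune cells in these values was not tested.

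Of 32 MHC class I and antigen presentation genes, 23 rose and 4 fell (median 0.59). HLA-B was at 159, 130.1, 128 and 111 CPM and 287, 248, 239 and 291 CPM. PSMB9, a subunit of the immunoproteasome, rose from 15.7 ± 2.07 to 40.5 ± 3.80 CPM, and NLRC5, the activator of class I genes, rose from 5.14 ± 0.737 to 10.9 ± 0.921 CPM. HLA-F rose from 5.96 ± 0.956 to 12.9 ± 0.728 CPM. Near-identical copies of HLA genes share reads that were not counted, so their levels are uncertain. Of 7 class II genes tested, 5 rose, among them CD74, the invariant chain, from 17.3 ± 1.25 to 54.6 ± 6.46 CPM.

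Metabolic genes changed in a few strong members more than as pathways. Of 24 glycolysis genes, 9 (37.5%) rose and 4 (16.7%) fell, with a median of 0.13. The shares of all genes tested were 24.2% and 24.4%. With length and GC offsets 7 rose and 4 fell, with a median of 0.01. The largest change was a fall: SLC2A3, the glucose transporter GLUT3, was at 1541, 1478, 1431 and 1508 CPM with GFP and 225, 311, 298 and 306 CPM with dnLEF1. PFKL, phosphofructokinase of liver type, rose from 112 ± 6.54 to 157 ± 9.95 CPM, and PFKFB3, which makes its activator, fell from 40.3 ± 1.37 to 28.9 ± 0.838 CPM. PDK1, a kinase that turns off pyruvate dehydrogenase and a Wnt target in colon cancer cells, was at 21.7 ± 2.03 and 18.6 ± 1.92 CPM (SD, n = 4 each) and did not pass (edgeR adjusted p = 0.0741). It passed, as lower, in the fit of all 16 libraries of the series (adjusted p = 0.0375) and without dnLEF1 replicate 1 (adjusted p = 0.0211). With length and GC offsets its direction turned, at 0.08 on the log2 scale (adjusted p = 0.537). The family members PDK3 and PDK4 fell, from 47.1 ± 2.95 to 22.5 ± 1.51 CPM and from 9.68 ± 0.607 to 5.82 ± 1.31 CPM. SLC16A1, the lactate transporter MCT1, was at 394, 439.9, 419.9 and 434 CPM and 202, 242, 244 and 255 CPM.

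In the list of amino acid stress genes and tRNA synthetases 16 of 31 fell and 2 rose, with a median of -0.22. The glutamine transporter SLC1A5 was at 1467, 1666, 1641 and 1698 CPM with GFP and 509.6, 571, 541 and 579.7 CPM with dnLEF1. SLC7A5, the large neutral amino acid transporter, fell from 1080.5 ± 38.1 to 610.3 ± 62.3 CPM, and SLC38A2 fell from 330.2 ± 28.9 to 215 ± 23.2 CPM. Of 26 genes of cholesterol synthesis and uptake, 12 rose, 2 fell and 12 did not pass (median 0.32), with none changed 2-fold. With the length and GC offsets, 9 rose and 1 fell. Without dnLEF1 replicate 4, 6 rose. MVD, an enzyme of the mevalonate path, rose from 25.8 ± 4.71 to 41.6 ± 9.47 CPM, and the sterol carrier STARD4 fell from 203 ± 26 to 131 ± 27.7 CPM. INSIG1, the sterol sensor's retention factor, was at 68.6 and 107 CPM, and its rise was lost without dnLEF1 replicate 4. Of 37 NRF2 and glutathione genes, 9 (24.3%) rose and 8 (21.6%) fell, near the 24.2% and 24.4% of all genes tested. With length and GC offsets 6 rose and 12 fell. GPX2, the glutathione peroxidase of gut epithelium, was at 19.9, 31.5, 28.7 and 34.2 CPM and 0.686, 0.527, 0.917 and 1.36 CPM, and AKR1C3 fell from 5.61 ± 1.65 to 0.576 ± 0.135 CPM. GPX4, which protects membrane lipids, rose from 212 ± 14.3 to 331 ± 45.1 CPM.

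Prostaglandin and eicosanoid genes rose in 9 of 19 (47.4%) and fell in 4 (21.1%), against 24.2% and 24.4% of all genes tested. PLA2G4A, which frees arachidonic acid, rose from 0.965 ± 0.155 to 6.33 ± 0.5 CPM. The 5-lipoxygenase partner ALOX5AP rose from 0.573 ± 0.294 to 6.81 ± 2.18 CPM, and the prostaglandin transporter SLCO2A1 rose from 0.576 ± 0.155 to 9.33 ± 0.786 CPM. HPGD, which inactivates prostaglandins, was at 52.2, 79.4, 73 and 76.1 CPM with GFP and 14.8, 16.1, 15.6 and 15.7 CPM with dnLEF1. Among hypoxia-induced genes, 7 of 23 (30.4%) rose and 10 (43.5%) fell. VEGFA rose from 13.1 ± 0.993 to 35.1 ± 2.18 CPM and ANGPTL4 rose from 0.748 ± 0.442 to 8.10 ± 1.96 CPM. EPAS1, the HIF-2 alpha subunit, fell from 241 ± 6.80 to 93.4 ± 14.2 CPM. ALDH1A3, which makes retinoic acid, fell from 442 ± 39.2 to 239 ± 2.91 CPM. Of 25 genes of metallothioneins and zinc transport, 8 (32%) rose and 3 (12%) fell, or 10 and 6 with the offsets. The metallothioneins MT2A, MT1E and MT1A, which bind zinc and copper, rose from 182 ± 8.89 to 349 ± 80.6 CPM, from 58.9 ± 2.67 to 100.4 ± 25.8 CPM and from 2.43 ± 0.687 to 8.86 ± 2.10 CPM.

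Genes of mitosis and DNA replication changed by small factors. Of 54 mitosis and DNA replication genes, 16 (29.6%) fell, 7 (13%) rose and 31 did not pass, and none changed 2-fold. The shares of all genes tested were 24.4% fallen and 24.2% risen. Without dnLEF1 replicate 4 the falls numbered 9, and without GFP replicate 1 the rises numbered 11. MKI67, the Ki-67 antigen of cycling cells, fell from 715 ± 79.3 to 468 ± 95 CPM. CCNE1, cyclin E, rose from 14.7 ± 1.0 to 21.7 ± 2.92 CPM. Among CDK inhibitors, D cyclins and arrest genes 12 of 23 fell and 3 rose, or 5 rose without dnLEF1 replicate 1. CCND1, cyclin D1, was at 2872, 2559, 2558 and 2786 CPM and 1181, 1334, 1348 and 1309 CPM. CCND2 was at 17.5, 23.6, 22.8 and 32.4 CPM and 1.37, 2.33, 1.57 and 2.13 CPM, a fall of 13-fold. The CDK inhibitor CDKN1C fell from 6.99 ± 2.11 to 1.73 ± 0.357 CPM, as did the antiproliferative gene BTG2, from 20.3 ± 8.37 to 9.88 ± 0.924 CPM, although GFP replicate 1 lay within the range of the dnLEF1 libraries for BTG2. Of 22 p53 targets, 8 (36.4%) rose and 3 (13.6%) fell. PERP, a junction protein, rose from 158 ± 8.71 to 376 ± 34.7 CPM. The cytokine GDF15 rose from 26.6 ± 7.23 to 49.4 ± 8.65 CPM. BIRC3, an inhibitor of apoptosis, rose from 11.4 ± 2.72 to 33 ± 2.26 CPM.

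Second-messenger and small GTPase regulators held some of the strongest single changes. Of 16 phosphodiesterases, 8 (50%) fell and 5 (31.2%) rose, against 24.4% and 24.2% of all genes tested. With length and GC offsets 5 fell. PDE4D, which breaks down cAMP, was at 270.2, 285, 289 and 318 CPM with GFP and 28.1, 40.4, 46.8 and 31.6 CPM with dnLEF1. PDE3B fell from 12.3 ± 1.27 to 2.45 ± 0.548 CPM, and PDE10A rose from 0.964 ± 0.0899 to 11.1 ± 1.56 CPM. ARHGAP29, which inactivates small GTPases, was at 88.4, 58.1, 64.5 and 71.5 CPM and 423, 405, 426 and 376 CPM. ARHGAP32, another inactivator, fell from 92.6 ± 8.67 to 13.5 ± 2.49 CPM. The exchange factors DOCK4 and DOCK11 fell, from 38.6 ± 5.04 to 7.80 ± 1.60 CPM and from 9.90 ± 1.78 to 1.02 ± 0.361 CPM. Regulators of G-protein signalling rose in 5 of 12 and fell in 1, with RGS5 at 4.33 and 26.8 CPM. Among Rab GTPases, RAB27B, which drives granule release, rose from 0.46 ± 0.169 to 5.38 ± 1.09 CPM.

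Counted in CPM and not in folds, the largest changes were in cytoskeletal genes, transporters and a few receptors. These were ranked among called genes whose groups did not overlap. Of the 12 largest CPM falls, KRT8, KRT18 and KRT5 stood beside CCND1, SLC2A3, SLC1A5 and CTNNB1. NGFR, the low-affinity neurotrophin receptor, was at 713, 903, 917 and 989 CPM with GFP and 207, 311, 309.6 and 443 CPM with dnLEF1. APCDD1, a Wnt-induced inhibitor of the pathway, fell from 727 ± 74.4 to 115 ± 7.35 CPM. NSMF, a synapse-to-nucleus messenger, fell from 1024 ± 13.9 to 253 ± 11 CPM, and the crosslinking enzyme TGM2 fell from 3505 ± 482 to 2747 ± 229 CPM. Of the 12 largest rises, PPME1, which demethylates phosphatase 2A, was at 334, 353, 343 and 364 CPM and 629, 884, 869 and 937 CPM. VIM, vimentin, rose from 811 ± 123 to 1242 ± 112 CPM, TMSB4X, which binds free actin, rose from 974 ± 16.1 to 1798 ± 277 CPM, and S100A6 rose from 428 ± 30.0 to 791 ± 109.7 CPM. The histone H2AFZ rose from 488 ± 16 to 821 ± 72.4 CPM. The cytoplasmic actins rose by small factors, ACTG1 from 2611 ± 108 to 3663 ± 303 CPM and ACTB from 4197 ± 129.8 to 5112 ± 572 CPM. The rise of ACTB was lost with length and GC offsets. GAPDH, often used as a reference gene, was at 4829 ± 453 and 5614 ± 414 CPM (SD, n = 4 each), with an edgeR adjusted p of 0.0471 which was lost under 9 of 19 alternative settings.

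Some long and non-coding transcripts changed. The let-7 and miR-100 host gene MIR100HG was at 1.77, 0.835, 0.945 and 0.754 CPM and 15.6, 16.1, 16.7 and 20.9 CPM. MIR17HG, host of the miR-17 cluster, fell from 12.9 ± 1.40 to 5.33 ± 0.97 CPM, and MIR503HG fell from 13.6 ± 2.0 to 5.36 ± 0.507 CPM. Of 33 long non-coding RNAs known in cancer, 17 rose and 8 fell. MALAT1 rose from 352 ± 64.4 to 567 ± 131 CPM, although dnLEF1 replicate 1 lay within the GFP range and the call was lost in the fit of all 16 libraries. HOTAIRM1, at the HOXA cluster, fell from 19.5 ± 2.08 to 10.3 ± 2.42 CPM. Of 162 LINC genes tested, 33 (20.4%) rose and 25 (15.4%) fell. Of 326 antisense genes, 53 (16.3%) rose and 52 (16%) fell, or 31 and 59 with length and GC offsets. Both classes passed the test less often than all genes tested, of which 24.2% rose and 24.4% fell. No source used here gives the strand setting of the counting, so reads of antisense genes and their partners cannot be told apart. HAS2-AS1, antisense to the hyaluronan synthase gene HAS2, was counted at 5.04 and 0.475 CPM.

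Many small changes followed transcript length and base composition. Among 13011 protein-coding genes with a GENCODE canonical transcript, 38.6% of the shortest quintile (295 to 1843 bases) rose and 9.45% fell. In the longest quintile (5829 to 43816 bases) 14.4% rose and 44.7% fell. By GC content, 286 of the 2603 genes in the lowest quintile rose and 1011 fell, and 1088 of the 2602 in the highest quintile rose and 334 fell. The libraries of a group differed in this slope. The median log2 deviation of the shortest and longest quintiles was 0.19 and -0.18 in dnLEF1 replicate 1 and 0.19 and -0.20 in replicate 4. In dnLEF1 replicates 2 and 3 it was 0.00 and -0.02, and -0.03 and 0.02. GFP replicates 1 and 4 sloped the other way, at -0.08 and 0.13, and -0.17 and 0.15. With offsets per library for length and GC content, 3313 genes rose and 3408 fell, 2601 and 2754 of them among those called without offsets. None reversed, and of the changes of at least 2-fold, 757 of 770 rises and all 800 falls stayed called.

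**Figure D4:**
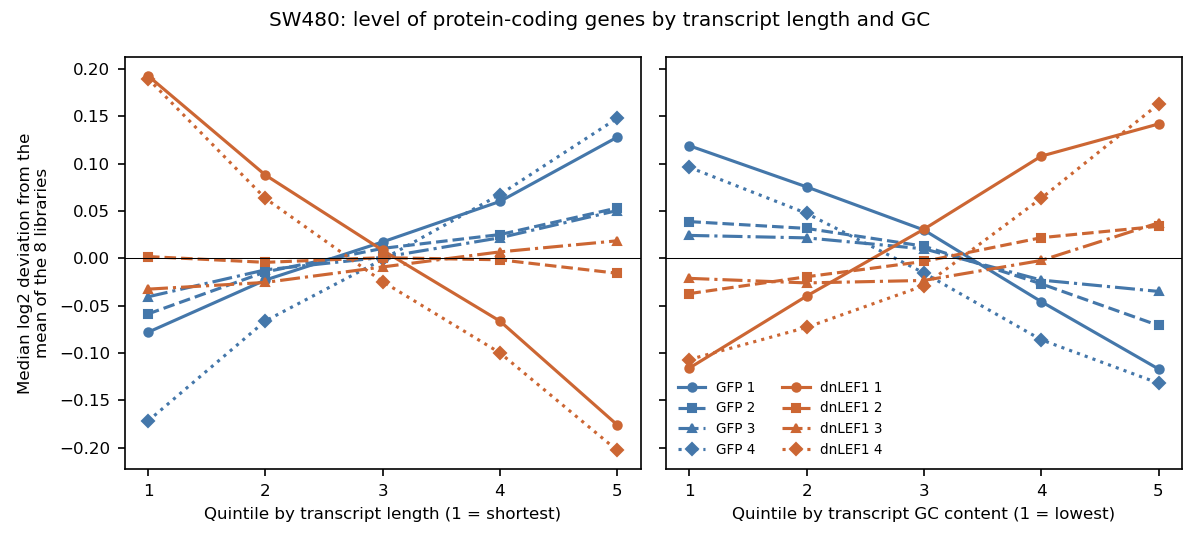
Median log2 deviation of protein-coding genes (mean of at least 5 CPM) from the mean of the 8 libraries, by quintiles of transcript length (left) and of GC content (right), 1 line per library. GFP libraries are blue and dnLEF1 libraries orange. Replicates 1 and 4 of each group slope most, and dnLEF1 replicates 2 and 3 are nearly flat by length.

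Groups of short or long genes have to be read beside that slope. Cytosolic ribosomal proteins, whose transcripts have a median of 869 bases, rose in 32 of 81 genes and fell in 2 (median 0.18). With length and GC offsets 16 rose and 11 fell. Without GFP replicate 4, dnLEF1 replicate 1 or dnLEF1 replicate 4 the rises numbered 17, 20 and 17, and in replicates 2 and 3 of each group alone 18 rose and 17 fell. Mitochondrial ribosomal proteins rose in 28 of 76 and fell in 1, and with offsets in 13 and 12. Their rises numbered 15, 16 and 15 without the same 3 libraries. Proteasome subunits, which degrade tagged proteins, rose in 10 of 31, and in 7 with offsets, with none falling. Without the same 3 libraries 5, 5 and 4 of them rose. ZNF zinc finger genes fell in 93 of 433 and rose in 37, and with offsets in 71 and 61. Kinesins, the microtubule motors, fell in 17 of 35 and with offsets in 10. The part of transcript length and base composition in these counts was not tested beyond these offsets.

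Some groups, of long genes and of shorter ones, changed less with the offsets. SWI/SNF and other chromatin remodellers, at a median of 6365 bases, fell in 18 of 33 genes and rose in 4, and with offsets in 14 and 3. CHD3, a NuRD helicase, was an exception that rose, from 87.9 ± 7.40 to 174 ± 16 CPM. DNA repair genes fell in 17 of 43 and with offsets in 15, RAD50 falling from 72.1 ± 7.0 to 47 ± 1.16 CPM. The intestinal factors, the keratins and the urokinase genes kept their counts within 1 gene under the offsets. Their transcripts were shorter, at medians of 3509, 2141 and 2343 bases. The FGF list lost 1 fall.

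Genes of a chromosome did not change evenly. The median log2 change was lowest on chromosome 10 at -0.20, where 235 of 548 genes fell and 81 rose, and on chromosome 18 at -0.16 and chromosome 5 at -0.16, where 253 of 604 fell and 95 rose. It was highest on chromosome 17 at 0.14, where 319 of 859 rose and 113 fell, and on chromosome 19 at 0.14. With length and GC offsets chromosomes 10, 5 and 18 were at -0.15, -0.12 and -0.07, chromosome 17 at 0.09 and chromosome 19 at 0.00. In 10 Mb bins with at least 20 genes tested, 16 of 240 had a median of -0.25 or less and 4 of 0.25 or more, and with the offsets 5 and 3 did. Of the 16, 5 lay on chromosome 5. The lowest, at 110 to 120 Mb of chromosome 5 (hg38), had a median of -0.49, with 24 of 29 genes fallen and none risen, and of -0.37 with the offsets. APC, at chr5:112707518-112846239, lies in that bin. The 30 to 40 Mb bin of chromosome 18 had a median of -0.42, with 16 of 25 genes fallen, and of -0.27 with the offsets. Copy number was not measured, so differences in gene dose between the samples cannot be told apart from regulation here.

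**Figure D5:**
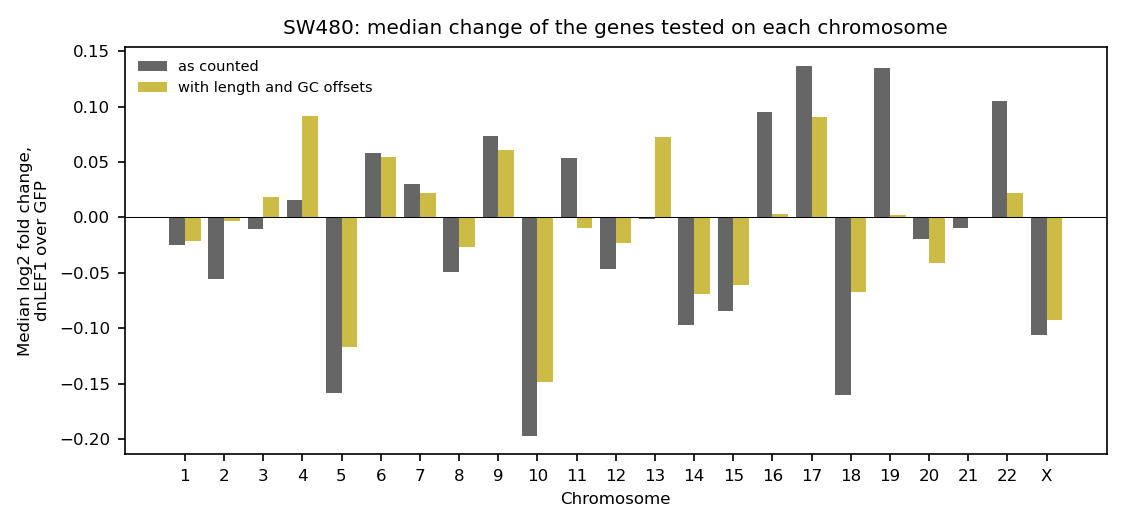
Median log2 fold change of dnLEF1 over GFP (vertical axis) for the genes tested on each chromosome (horizontal axis), as counted (grey) and with offsets for transcript length and GC content (yellow). Many chromosomes keep their side of 0 in both. Chromosomes 10, 5 and X are the lowest with the offsets, and chromosomes 4 and 17 are both at 0.09.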

How the data were processed

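The SW480 libraries, 4 with GFP and 4 with dnLEF1, were taken from the labels. The authors deposited a raw count for each gene symbol. The submitters' processing notes name Trimmomatic, TopHat2, HTSeq and DESeq2, and hg38 as the build. Tool versions, gene annotation and strand setting: not given in the sources used here. Each file lists 26485 gene symbols and 5 summary lines, which held 20.0% to 23.6% of the total in the 8 libraries and were left out. Reads placed in more than 1 position are not in the gene counts, so near-identical gene copies are undercounted.

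Counts were fitted on the 8 libraries with edgeR 4.0.16 (R 4.3.3). Genes were kept by filterByExpr over the groups and scaled by TMM, and the quasi-likelihood test was called at a Benjamini-Hochberg adjusted p below 0.05. The fit was also run on simulated data, and that outcome is not reported here. The standard error of a log2 fold change was its size divided by the square root of F. CPM are given as mean ± SD over 4 libraries. For a gene without a count in a group, the fold is a bound from a floor of 3 counts in its 4 libraries together, and ratios for 1 to 3 counts have 95% exact Poisson intervals. Gene positions and transcript lengths came from GENCODE and promoter windows from RefSeq, by symbol: 24270 symbols (91.6%) had a position and 17341 (65.5%) a window.

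The 67 lists and 38 name families were chosen with earlier results of these data known, and give no independent support. Named genes were LEF1, the 15 largest folds each way (mean of at least 5 CPM in 1 group, no overlap), the 12 largest CPM changes each way (no overlap), up to 4 called members per list by fold, a fixed set of Wnt, metabolic and reference genes, and up to 6 genes each way with a promoter motif. A gene named under a list may come from another part of that rule. LRRTM1 and S100A4 were chosen after their values were seen. Some genes that the rule names are not reported here. The alternatives were DESeq2 1.42.0 size factors or test, limma 3.58.1 voom, no scaling, other filters, a replicate block, replicates 2 and 3 summed, all 16 libraries and leaving out each library. Length and GC offsets, and replicates 2 and 3 alone, were added after seeing the data.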

Additional observations from a re-analysis of the deposited data

Results flagged for a closer look

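In 42 of 401 groups of 4 libraries, over the genes named, 1 library lay apart from the other 3 (gap over range above Dixon's 95% limit). Where the other 3 lay close together the gap itself could be small, as for ALDH1A3 (235 against 240.0 to 241). Chance flags about 1 group in 20. GFP replicate 1 held 15 of these, dnLEF1 replicate 1 held 12, dnLEF1 replicate 4 held 7 and GFP replicate 4 held 6, and replicates 2 of both groups held none. Each gene is given with that library's CPM and the range of the other 3 libraries of its group.

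GFP replicate 1 was low for FOXQ1 (91.8 against 109.8 to 112), GDF15 (15.8 against 29.1 to 30.9), HES6 (31 against 50.6 to 54.5), KRT5 (2005 against 2653 to 2752) and LFNG (26.4 against 32.9 to 33.5). It was also low for S100A4 (485 against 572 to 578) and SYP (24.4 against 26.4 to 26.7). It was high for AXIN2 (589 against 565 to 566), EPAS1 (251 against 236 to 239), KRT23 (803 against 642 to 657), NR3C1 (15.9 against 11.9 to 12.4) and PTCH1 (89 against 84.2 to 84.8). It was also high for SOX2 (13.1 against 8.70 to 9.05), TGM2 (4227 against 3226 to 3288) and TMSB4X (998 against 964 to 967). GFP replicate 3 was low for LEF1 (51 against 54.2 to 54.8) and MMP17 (0.448 against 1.04 to 1.11). GFP replicate 4 was low for HLA-F (4.53 against 6.36 to 6.53) and RGS5 (3.77 against 4.48 to 4.58). It was high for DOCK4 (46.1 against 35.3 to 37.1), EXT1 (37.6 against 31.5 to 32.5), FGF9 (10.4 against 6.42 to 6.90) and GALNT3 (9.57 against 6.78 to 7.0). dnLEF1 replicate 1 was low for ALDH1A3 (235 against 240.0 to 241), DACH1 (0.823 against 2.28 to 2.37), FOXP1 (5.86 against 8.37 to 8.51), FOXQ1 (14 against 20.5 to 21.7) and KLF5 (35.6 against 46.8 to 48.5). It was also low for MITF (32.9 against 48.8 to 50.3), SLC2A3 (226 against 298 to 311), SLC7A5 (517 against 634 to 648), STARD4 (89.7 against 144 to 146) and TGFB2 (14.4 against 25.2 to 26.9). It was high for CCNE1 (26.1 against 19.9 to 20.9) and PFKL (172 against 151 to 153). dnLEF1 replicate 4 was low for AXIN2 (65.9 against 74.7 to 75.2) and LEF1 (181 against 279 to 285). It was high for FGF18 (1.45 against 0.874 to 0.921), MIR17HG (6.78 against 4.74 to 4.89), MT2A (469.5 against 295 to 317), MVD (55.8 against 35.6 to 38) and PERP (428 against 356 to 362).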

How the results depend on the processing

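Over 17 planned and 2 added settings, 2976 to 3857 genes fell and 3013 to 3664 rose, against 3515 and 3485. At least 2-fold falls numbered 630 to 1111 and rises 610 to 1008, each within 1.5 times of the reported count. Leaving out 1 library gave 3013 to 3500 rises, 2976 to 3507 falls, 752 to 833 rises and 781 to 889 falls of at least 2-fold. No gene called in both was called in opposite directions under any of the 19 settings. The fewest genes were shared with the length and GC offsets, 74.6% of risen and 78.3% of fallen genes. The replicate numbers were not taken to pair the samples: deviations of same-numbered libraries correlated at 0.293, -0.034, -0.137 and -0.005, and 2 of 8 libraries matched their own number best. With a replicate block 3437 genes rose and 3450 fell, 770 and 804 of them at least 2-fold. With CTTTGAT alone as the motif, 1.79% of the windows of fallen genes held it, against 5.74% with both forms. Of 207 genes named, 199 kept their call and direction under every setting. The others were ACTB, EGFR, GAPDH, INSIG1, MALAT1, PDK1, S100A4 and TCF7L1, and the cause was not tested. EGFR passed, as higher, only in replicates 2 and 3 alone by 0.49 on the log2 scale (edgeR adjusted p = 2.05e-07). S100A4, not called otherwise, stood at -0.10 there, against 0.15. Changes under 1.5-fold made up 59.2% of the calls.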

Other observations

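Gene groups outside the signalling and identity programs are given here beside the shares over all genes tested, 24.2% risen and 24.4% fallen. Of 43 glycosyltransferases of mucin and Lewis glycans tested, 19 rose and 14 fell. GALNT5 and GALNT3, which start O-linked mucin glycans, rose from 0.703 ± 0.103 to 12.2 ± 1.11 CPM and from 7.58 ± 1.33 to 26.7 ± 0.723 CPM. ST3GAL5, which makes the ganglioside GM3, rose from 3.74 ± 0.946 to 15.6 ± 1.15 CPM, and MGAT3, which adds the bisecting residue of N-glycans, fell from 13.1 ± 1.10 to 4.45 ± 0.857 CPM. Proteoglycan and heparan sulfate enzyme genes split 12 up and 8 down of 28: the sulfotransferase HS3ST3A1 rose from 2.13 ± 0.225 to 12.2 ± 1.39 CPM and the polymerase EXT1 rose from 33.5 ± 2.75 to 86.7 ± 4.98 CPM. Of 24 iron and heme genes, 8 rose and 4 fell, with the exporter SLC40A1 falling from 5.28 ± 0.789 to 1.68 ± 0.336 CPM and LCN2, which binds bacterial siderophores, rising from 9.85 ± 1.07 to 27.8 ± 5.18 CPM.

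Of 33 splicing regulators, 12 fell and 4 rose. ESRP1, an epithelial splicing factor, fell from 87.7 ± 12 to 48.4 ± 5.63 CPM, RBM20 fell from 31.9 ± 2.13 to 11.8 ± 2.30 CPM and MBNL2 rose from 51.5 ± 5.37 to 92.4 ± 8.93 CPM. Lysosome and autophagy genes rose in 13 of 43 and fell in 3, none by 2-fold, and with length and GC offsets 6 fell. SQSTM1, the autophagy receptor p62, rose from 426 ± 8.18 to 631 ± 51.3 CPM, and MITF, a factor that drives lysosomal genes, rose from 26.4 ± 2.86 to 45.5 ± 8.38 CPM. Only 1 of 96 small nucleolar RNA genes tested rose and 4 fell, or 0 and 10 with the offsets. That class is poorly captured by polyadenylated RNA libraries. Laminin subunits moved apart, LAMB1 rising from 95.5 ± 3.54 to 200.4 ± 16.9 CPM and LAMB3 falling from 63.1 ± 7.41 to 27.7 ± 1.08 CPM.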
